A study of Mus musculus with 6 samples.

Results

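The genes described here encode the degradative lysosome of mouse splenic CD4+ dendritic cells (DC), which are antigen-presenting cells. They comprise its hydrolases and their soluble helpers, its membrane proteins, the proton pump (V-ATPase) that acidifies it and the transcription factors Tfeb, Tfe3 and Mitf. The list was drawn up by gene symbol with the cathepsins left out, and each gene was represented by the probe set of that symbol alone with the highest mean over all arrays. Of the 48 listed genes, 46 were measured, meaning a log2 value of at least 6.5 in 1 array or more, among 9922 genes measured in all. The Atp6v0d2 probe set stayed below that background level in every array, and Atp6v0c had no probe set carrying its symbol alone and was not analysed here.

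RNA came from 6 male mice aged 6 weeks, 3 of genotype Runx3 +/+ (WT) and 3 Runx3 -/- (Runx3-/-), supplied as 3 pairs of litter mates, and each mouse gave 1 Affymetrix array. Runx3 is a transcription factor of the RUNX family. Its loss was in the germline, so every cell of the mouse lacked it, and a change in the sorted DC may arise in other cells. DC were sorted by flow cytometry on CD11c and MHCII and then by CD4 and CD8. An Esam population is mentioned in the labels as well, with no word on how Esam entered the gate. Because the material was bulk RNA, fewer cells of a type and less RNA per cell cannot be told apart in any value given here.

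Lysosomes receive hydrolases made in the endoplasmic reticulum and tagged for delivery in the Golgi, and these enzymes work at the low pH that the V-ATPase maintains. The pump has a membrane sector, V0, that passes protons and a cytosolic sector, V1, that hydrolyses ATP. In DC the same compartment trims antigen and the invariant chain before peptides are loaded on MHC class II, and acidification and proteolysis there are known to be restrained compared with those of macrophages. Tfeb, Tfe3 and Mitf bind E-box sequences in the promoters of many lysosomal genes and can raise them together.

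The arrays were alike in overall level, with median log2 values of 6.57 to 6.65. Runx3 itself was lower in every Runx3-/- array, at 11.24, 11.22 and 11.11 in WT 1 to 3 and 9.16, 9.30 and 9.16 in Runx3-/- 1 to 3, so the libraries bore out their labels. Its log2 change of -1.98 (SE 0.08) passed in limma (adjusted p = 0.0027). Permuting the 6 arrays exactly and two-sidedly gave p = 0.1, and no smaller value is possible with 3 arrays a group. With litter as a block the adjusted p was 0.061, and it was 0.053 without WT 1. All 8 markers of CD4+ DC were measured, and their summed linear level was 14.84 to 14.93 (log2) in WT and 14.85 to 14.95 in Runx3-/- arrays. Within that sum, Irf4, a factor that these DC depend on, fell by 0.62 on the log2 scale (limma adjusted p = 0.043, and 0.102 with litter as a block), while Clec4a4 was at -0.27 and Itgam at 0.47 with groups apart, neither passing (limma adjusted p = 0.301 and 0.172). Runx3-/- 3 stood apart in markers of plasmacytoid DC: Siglech, a receptor of those cells, was at 10.18 there and at 7.40 to 8.18 in the other 5 arrays. Whether this RNA came from such cells or from the sorted DC was not tested.

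The promoters of the called members and of 3 other members are printed here because E-boxes near the start are the sequences through which the Tfeb family is known to act, and because they show how unlike the promoters of the members that moved were. They are RefSeq windows (GRCm38.p6) of 300 bases, 250 before and 50 from the transcription start on, written 5′ to 3′ on the strand of the gene. Lamp1, Lgmn, Galc and Acp2 are the members that passed the adjusted test below. Gla, Mcoln1 and Atp6v1a are a hydrolase, a membrane protein and a pump subunit whose windows held the longer palindrome TCACGTGA. Capitals mark each CACGTG (E-box) and each TGTGGT, the core bound by RUNX proteins, read on either strand, so that the core also appears as ACCACA.
Lamp1, chr8:13158911-13159210, plus strand: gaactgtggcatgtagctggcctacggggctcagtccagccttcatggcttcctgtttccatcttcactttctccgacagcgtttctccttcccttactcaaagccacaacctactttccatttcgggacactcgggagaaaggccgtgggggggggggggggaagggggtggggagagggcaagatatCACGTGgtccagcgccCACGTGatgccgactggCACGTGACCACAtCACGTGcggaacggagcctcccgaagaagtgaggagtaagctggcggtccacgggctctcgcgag
Lgmn, downstream start of 2, chr12:102439043-102439342, minus strand: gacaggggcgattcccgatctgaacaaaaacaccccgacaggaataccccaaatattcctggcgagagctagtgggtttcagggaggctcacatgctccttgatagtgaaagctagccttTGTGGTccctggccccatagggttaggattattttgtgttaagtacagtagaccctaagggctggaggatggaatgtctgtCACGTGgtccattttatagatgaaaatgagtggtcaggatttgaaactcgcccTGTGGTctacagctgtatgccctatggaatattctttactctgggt
Galc, chr12:98259410-98259709, minus strand: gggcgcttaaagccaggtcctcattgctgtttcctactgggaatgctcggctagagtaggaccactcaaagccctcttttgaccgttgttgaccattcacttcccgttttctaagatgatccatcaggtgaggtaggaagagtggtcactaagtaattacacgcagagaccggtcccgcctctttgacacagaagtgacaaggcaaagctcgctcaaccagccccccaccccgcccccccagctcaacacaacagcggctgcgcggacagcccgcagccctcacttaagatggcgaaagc
Acp2, chr2:91202662-91202961, plus strand: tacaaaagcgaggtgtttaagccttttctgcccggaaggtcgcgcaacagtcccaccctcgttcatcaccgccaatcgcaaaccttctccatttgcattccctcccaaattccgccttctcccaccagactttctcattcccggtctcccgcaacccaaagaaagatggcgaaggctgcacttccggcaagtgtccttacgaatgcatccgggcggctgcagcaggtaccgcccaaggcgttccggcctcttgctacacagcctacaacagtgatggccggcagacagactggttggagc
Gla, chrX:134600956-134601255, minus strand: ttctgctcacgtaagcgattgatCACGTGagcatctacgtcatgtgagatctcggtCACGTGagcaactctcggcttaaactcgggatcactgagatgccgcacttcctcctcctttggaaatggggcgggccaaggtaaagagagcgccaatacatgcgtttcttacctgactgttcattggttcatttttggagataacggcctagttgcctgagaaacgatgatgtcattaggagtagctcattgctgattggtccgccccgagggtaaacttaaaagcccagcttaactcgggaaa
Mcoln1, chr8:3500269-3500568, plus strand: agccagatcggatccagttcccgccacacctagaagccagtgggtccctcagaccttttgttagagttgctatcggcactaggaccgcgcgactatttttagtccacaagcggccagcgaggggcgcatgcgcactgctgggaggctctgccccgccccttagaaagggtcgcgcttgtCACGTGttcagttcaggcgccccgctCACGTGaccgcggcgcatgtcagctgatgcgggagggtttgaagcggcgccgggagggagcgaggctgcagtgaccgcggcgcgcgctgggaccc
Atp6v1a, chr16:44139210-44139509, minus strand: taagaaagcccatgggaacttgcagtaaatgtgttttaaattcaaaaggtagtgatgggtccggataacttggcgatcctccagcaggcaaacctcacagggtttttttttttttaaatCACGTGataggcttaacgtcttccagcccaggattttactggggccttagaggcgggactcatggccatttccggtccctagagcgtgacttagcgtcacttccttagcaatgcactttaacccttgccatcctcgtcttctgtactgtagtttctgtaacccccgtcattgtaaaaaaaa

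A window was listed for 42 of the 48 members. It was not listed for Asah1, Npc1, Atp6v0d2, Atp6v1b2, Atp6v1c1 and Atp6v1h. CACGTG lay in a window of 11 of these 42 (26.2%), against 8.09% of the 27025 genes with a window, and the 11 were Arsa, Atp6v0b, Atp6v0d1, Atp6v1a, Gaa, Gla, Glb1, Lamp1, Lgmn, Mcoln1 and Naglu. TCACGTGA, each instance of which is also a CACGTG, lay in 4 of 42 (9.52%) against 1.13% of genes. The same palindrome with a G added in front and a C behind lay in 0 of 42 against 0.370%. The RUNX core lay in 8 of 42 (19.0%), close to the 18.9% of genes with a window. The genes with a window were not limited to the 9922 measured here, unlike the shares of all genes given below. Lamp1 held 4 E-boxes, beginning 61, 45, 28 and 15 bases before the listed start, with a RUNX core 22 bases before it, directly after the third E-box. The Lgmn window shown held 1 E-box and 2 RUNX cores, while the window of its upstream start held 0 E-boxes and 1 RUNX core. Neither motif was found in the windows of Galc and Acp2. Of the 11 members with an E-box, Lamp1 and Lgmn passed the adjusted test. Gla, Atp6v1a and Atp6v0d1 had log2 changes of 0.35, 0.27 and 0.10 that did not pass, and Arsa, Atp6v0b, Gaa, Glb1, Mcoln1 and Naglu had log2 changes between -0.22 and -0.0015, where Arsa and Naglu lay so near 0 that median centring or quantile normalization turned their sign. These are descriptions of letters in a window and say nothing of whether any factor binds there.

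Which lysosomal genes differ when Runx3 is absent was asked first of the 46 measured members together. Galc, Lgmn, Lamp1 and Acp2 rose in Runx3-/- DC and no member fell (limma, adjusted p of at most 0.05). These 4 were 8.70% of the measured members, where 1.36% of all genes tested were called higher and 0.907% lower, 2.27% in either direction. The 4 differ in function, and the median log2 change of the 32 lysosomal members was 0.09, and 0.03 without the 4 called ones, against -0.03 over all genes. By the study's own pair of thresholds (a change of at least 1.5-fold and an unadjusted p up to 0.05), 3 members were higher and 0 lower, against 3.05% and 1.62% of all genes, 4.68% in either direction.

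**Figure D1:**
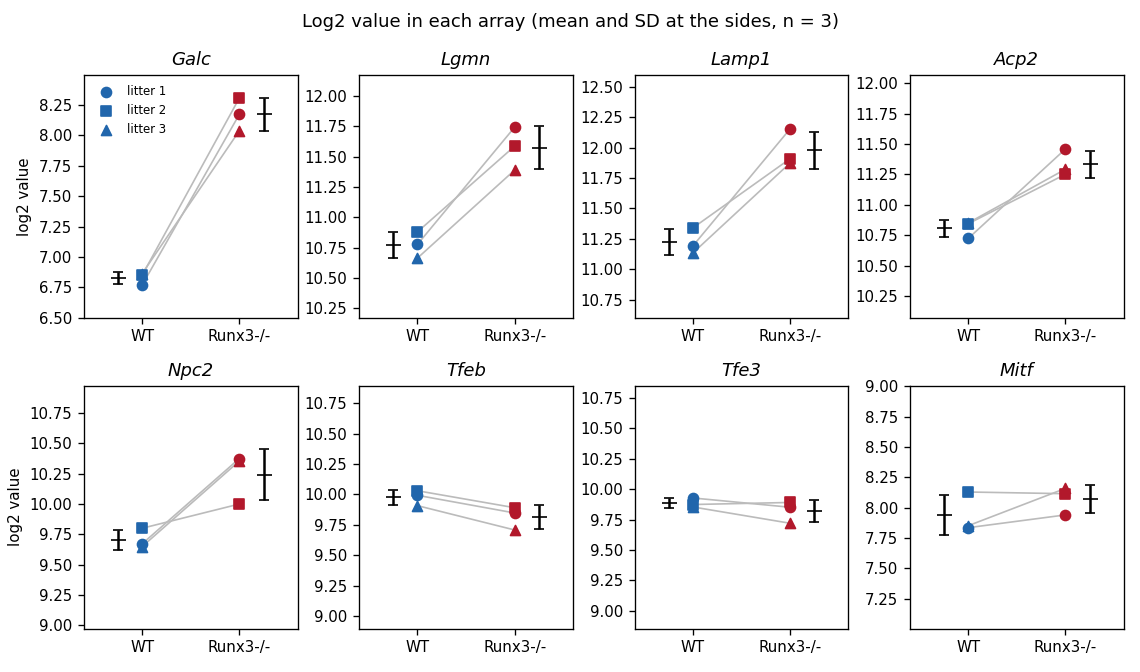
Log2 value of 8 members in each array (vertical axis, each panel spanning the same number of log2 units), with WT in blue and Runx3-/- in red, litter mates joined by a line, and the mean and SD (n = 3) at the sides. Galc, Lgmn, Lamp1 and Acp2 lay higher in all 3 Runx3-/- arrays than in any WT array, while the values of Tfe3 and Mitf overlapped between genotypes and the deposited values of Tfeb were lower in every Runx3-/- array.

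Galc (probe set 10401968, Entrez gene 14420), the galactosylceramidase that removes galactose from galactosylceramide and whose loss causes Krabbe disease, was at 6.77, 6.85 and 6.86 in WT 1 to 3 and at 8.17, 8.31 and 8.04 in Runx3-/- 1 to 3. The WT arrays thus lay just above background within 0.1 of each other, and every Runx3-/- array lay more than 1 log2 unit above all of them. The log2 change was 1.35 (SE 0.09, limma adjusted p = 0.011), the 56th largest rise of the 9922 genes. Since WT signal was close to background, where arrays compress differences, the fold is open to understatement.

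Lgmn (10402268, Entrez gene 19141) encodes legumain, an endopeptidase that cuts after asparagine, activates other lysosomal proteases and makes the first cuts in some antigens. Its log2 values were 10.78, 10.88 and 10.66 in WT and 11.74, 11.59 and 11.39 in Runx3-/- arrays in the same order. The genotypes did not overlap, and the difference within a litter was 0.97, 0.71 and 0.73. The log2 change was 0.80 (SE 0.11, limma adjusted p = 0.033).

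Lamp1 (10570344, Entrez gene 16783), a heavily glycosylated protein that lines the inner face of the lysosomal membrane, was at 11.19, 11.34 and 11.13 in WT and 12.15, 11.91 and 11.87 in Runx3-/- arrays. All Runx3-/- arrays were above all WT arrays, most so in litter 1. The log2 change was 0.76 (SE 0.10, limma adjusted p = 0.032). Its close relative Lamp2, which also serves chaperone-mediated autophagy, was at 10.90, 10.93 and 10.96 in WT and 11.19, 11.14 and 11.17 in Runx3-/- arrays. These groups too lay apart, with little spread, but the log2 change of 0.24 (SE 0.06) did not pass (limma adjusted p = 0.148).

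Acp2 (10473847, Entrez gene 11432), the lysosomal acid phosphatase, was at 10.72, 10.84 and 10.85 in WT and 11.46, 11.25 and 11.29 in Runx3-/- arrays. The groups lay apart, with the largest gap again in litter 1. The log2 change was 0.53 (SE 0.09, limma adjusted p = 0.046), just inside the threshold and under 1.5-fold. The other phosphatase of the list, Acp5, had a log2 change of 0.15 (95% interval -0.02 to 0.32) and did not pass (limma adjusted p = 0.375).

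These 4 calls rested on a model without the litter. With litter as a block, the adjusted p (limma) was 0.081 for Lgmn, 0.070 for Galc, 0.099 for Lamp1 and 0.130 for Acp2, so 0 members passed, at the same fold changes. The methods' analysis of variance also called 0 after adjustment. Leaving out 1 array at a time gave 0 to 2 calls: none without WT 1 or without Runx3-/- 3, Galc in each of the other 4 fits, and Npc2 beside it without Runx3-/- 2. Over these 6 fits the adjusted p (limma) of Galc ran from 0.019 to 0.074 and that of Lgmn from 0.062 to 0.160.

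The remaining hydrolases were read by what they break down, in a grouping made after their values were seen. Of the 7 that act on sphingolipids, Galc alone passed. Gla, the alpha-galactosidase lost in Fabry disease, had a log2 change of 0.35 (limma adjusted p = 0.142), with WT arrays at 7.63, 7.66 and 7.64 and Runx3-/- arrays at 8.16, 7.93 and 7.89. Its groups lay apart, while those of Smpd1 (acid sphingomyelinase, 0.17) and Hexa (a beta-hexosaminidase subunit, 0.10) overlapped. Asah1, the acid ceramidase, differed by only 0.15, though by 0.15, 0.15 and 0.16 in the 3 litters. Arsa, the arylsulfatase of sulfatide, had a change of -0.02 and Glb1, the beta-galactosidase of gangliosides, one of -0.22, the lowest of any member (95% interval -0.46 to 0.03).

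The 5 enzymes that take apart glycosaminoglycans, Gusb, Idua, Ids, Naglu and Arsb, lay between -0.10 and 0.09, and none had an unadjusted p of at most 0.05. Their 95% intervals ran together from -0.32 to 0.29, so changes the size of those of Galc or Lgmn lay outside them. The 4 that trim sugars of glycoproteins, Neu1, Fuca1, Manba and Man2b1, lay between -0.13 and 0.06. Man2b1, a mannosidase, was lower in every Runx3-/- array (12.60, 12.58 and 12.55 against 12.43, 12.47 and 12.45) by a log2 change of -0.13 that did not pass (limma adjusted p = 0.391). Gaa, which frees glucose from glycogen, was at -0.07. Among the enzymes acting on peptides and lipid-modified proteins besides Lgmn, the thioesterase Ppt1 was at 0.24 (limma adjusted p = 0.252) and the tripeptidyl peptidase Tpp1 at 0.08.

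**Figure D2:**
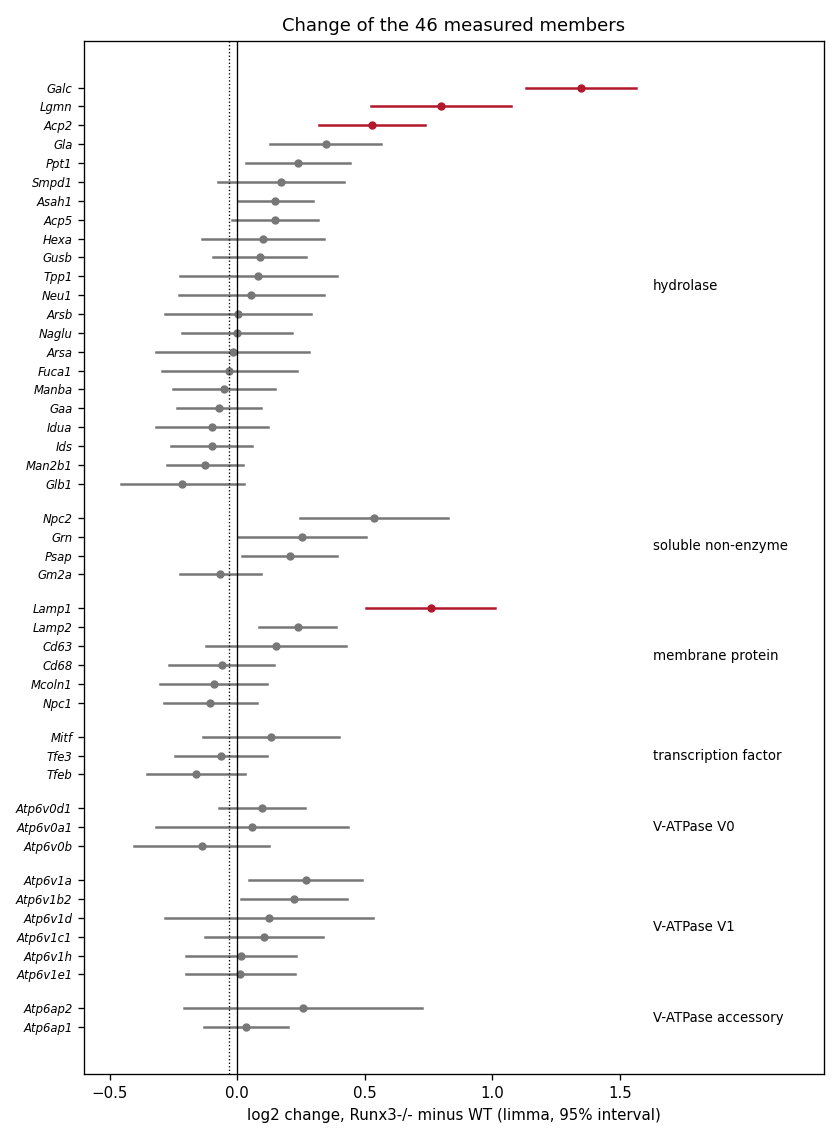
Log2 change of each measured member, Runx3-/- minus WT (horizontal axis), with its 95% interval from limma, grouped by role. Red marks an adjusted p of at most 0.05, the solid line 0 and the dotted line the median of all genes tested, and Galc, Lgmn, Lamp1 and Acp2 lie farthest to the right of the hydrolases and membrane proteins, while Npc2 at 0.54 is not red.

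The soluble non-enzymes help hydrolases reach their lipids or carry lipids away. Npc2, which takes up cholesterol in the lumen, was at 9.67, 9.80 and 9.65 in WT and 10.37, 10.00 and 10.35 in Runx3-/- arrays. All Runx3-/- values were higher, but that of litter 2 by only 0.20 where the other litters differed by 0.70 and 0.71. Its log2 change of 0.54 (SE 0.12) was as large as that of Acp2 and did not pass (limma adjusted p = 0.103), although it passed without Runx3-/- 2 (limma adjusted p = 0.049). Grn, the precursor of granulins, was at 0.25 and Psap, the precursor of the saposins that activate sphingolipid enzymes, at 0.21, neither passing (limma adjusted p = 0.311 and 0.273). Gm2a, the activator of ganglioside breakdown, was at -0.07.

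Besides Lamp1 and Lamp2, the membrane proteins lay near 0. Npc1, the membrane partner of Npc2 in cholesterol export, was at -0.10 (95% interval -0.29 to 0.08) and lay just lower in every Runx3-/- array (11.08, 11.09 and 11.07) than in any WT array (11.29, 11.16 and 11.11). Mcoln1, a calcium channel of the lysosome, was at -0.09. Cd63, a tetraspanin of late endosomes, was at 0.15 (8.36, 8.24 and 8.61 in WT against 8.51, 8.50 and 8.66) and its groups overlapped. Cd68, a glycoprotein often used as a macrophage stain, was at -0.06, with 12.52, 12.61 and 12.41 in WT and 12.52, 12.48 and 12.35 in Runx3-/- arrays.

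The transcription factors of the family did not pass the test. Tfeb was at 9.99, 10.03 and 9.91 in WT and 9.85, 9.89 and 9.71 in Runx3-/- arrays, lower in each litter, with a log2 change of -0.16 (SE 0.08, limma adjusted p = 0.391, 1.12-fold lower). Tfe3 was at 9.93, 9.87 and 9.85 in WT and 9.85, 9.89 and 9.72 in Runx3-/- arrays, which overlap (log2 change -0.06, SE 0.07, limma adjusted p = 0.733, 1.05-fold lower). Mitf was at 7.83, 8.13 and 7.85 in WT and 7.94, 8.11 and 8.16 in Runx3-/- arrays, which also overlap (log2 change 0.13, SE 0.11, limma adjusted p = 0.618, 1.10-fold higher), and a second Mitf probe set gave 0.02. The 95% intervals were -0.36 to 0.03 for Tfeb, -0.25 to 0.12 for Tfe3 and -0.13 to 0.40 for Mitf. RNA levels say nothing of nuclear entry, by which these factors are mainly controlled.

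No V-ATPase subunit passed the test in limma or, after adjustment, in the methods' analysis of variance, and 2 of 11 had an unadjusted p of at most 0.05 (limma), both higher, 18.2% against 7.59% of all genes higher and 19.4% in either direction. Of the 11 measured, 10 had a log2 change above 0, where 41.3% of all genes did. The changes were small, from -0.14 to 0.27 with a median of 0.10. In the V1 sector, which hydrolyses ATP, all 6 measured members were above 0. The catalytic subunit Atp6v1a was at 10.04, 10.01 and 10.13 in WT and 10.44, 10.17 and 10.37 in Runx3-/- arrays, and its groups lay apart (log2 change 0.27, limma adjusted p = 0.233). Its partner in the catalytic ring, Atp6v1b2, was at 10.84, 10.93 and 11.04 in WT and 11.26, 11.08 and 11.14 in Runx3-/- arrays, with the lowest Runx3-/- array just above the highest WT array (log2 change 0.22, limma adjusted p = 0.284). The stalk and regulatory subunits Atp6v1c1, Atp6v1d, Atp6v1e1 and Atp6v1h lay between 0.01 and 0.12.

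In the V0 sector, Atp6v0d1, which joins it to V1, was at 0.10, Atp6v0a1, an isoform of the proton-conducting subunit a, at 0.06, and Atp6v0b, of the proteolipid ring, at -0.14. Atp6v0d2, the isoform of osteoclasts and some macrophages, was at 5.30, 5.34 and 5.23 in WT and 5.05, 5.19 and 5.38 in Runx3-/- arrays, below background throughout. The accessory Atp6ap2, which helps assemble the pump, was at 10.73, 10.65 and 11.03 in WT and 10.93, 10.81 and 11.46 in Runx3-/- arrays. It was higher in the Runx3-/- mouse of each litter, and litter 3 was the highest of both genotypes. Its log2 change of 0.26 had the widest 95% interval of the pump genes, -0.21 to 0.73. The other accessory protein, Atp6ap1, was at 0.03.

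In most of the 11 measured V-ATPase members the litter carried more of the variation than the genotype did. For each gene the sum of squares over the 6 arrays was divided into a part for genotype, a part for litter and a remainder. Litter has more levels than genotype, so its share would tend to be the larger even without any effect. Each share is therefore to be read beside that of all genes. The median litter share was 70.5% in V-ATPase genes, 20.0% in lysosomal members and 36.5% over all genes, and the median genotype share was 24.0%, 48.6% and 28.9%. The litter share exceeded the genotype share in 8 of 11 V-ATPase genes and 13 of 32 lysosomal members, against 55.7% of all genes. Atp6v1d was such a gene, at 11.00, 10.84 and 11.26 in WT and 11.12, 10.92 and 11.45 in Runx3-/- arrays, so the litters kept 1 order in both genotypes and the litter share was 89.8%. The genotype share of the 4 called members was 91.8% to 98.5%, which follows from their having been called by genotype. The 9 other measured V-ATPase subunits, described further below, had a median litter share of 53.3%. Litter exceeded genotype in 5 of these 9, 55.6%, near the share of all genes. Whether litters were also sorted or hybridised apart is not stated in the sources used here.

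**Figure D3:**
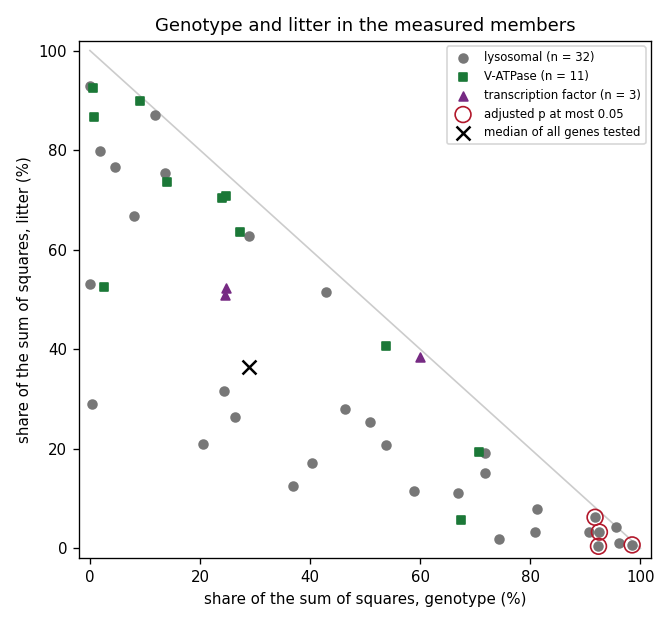
Share of each measured member's sum of squares over the 6 arrays that goes with genotype (horizontal axis, %) and with litter (vertical axis, %), where the grey line marks a sum of 100%. V-ATPase genes (green squares) gather at high litter shares, with a median of 70.5%. Red rings mark the 4 called members, whose place at high genotype shares follows from the call itself.

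Read within litters, the difference was above 0 for 22, 16 and 20 of the 32 lysosomal members in litters 1, 2 and 3, with medians of 0.15, -0.01 and 0.08, so litter 2 showed the least. Of the V-ATPase genes it was above 0 for 10, 8 and 9 of 11. Over all 9922 genes it was above 0 for 4244, 4734 and 3802. Over all 46 members, 20 were higher in the Runx3-/- mouse of every litter and 9 lower, 43.5% and 19.6%, where 19.3% and 32.0% of all genes were. The 3 Runx3-/- arrays lay above the 3 WT arrays for 15 members and below for 6 of the 46, against 9.86% and 18.6% of all genes, 28.5% either way. The lower count rested on the scaling: it was 1, Man2b1, with 16 higher after median centring, and 4 with 16 higher after quantile normalization. An unadjusted p of at most 0.05 was reached by 13 members, all higher (28.3%, against 7.59% of all genes higher and 11.8% lower, 19.4% in all). They were the 4 called members with Npc2, Gla, Lamp2, Ppt1, Psap, Grn, Asah1, Atp6v1a and Atp6v1b2. The 6 members whose Runx3-/- arrays all lay lower in the deposited values were Glb1, Man2b1, Ids (-0.10), Gm2a, Npc1 and Tfeb, with differences of 0.22 log2 units or less.

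Markers of red pulp macrophages and monocytes moved with the genotype in the same direction as the called members. Summed markers of CD8+ DC, plasmacytoid DC and B cells were also higher in every litter. The B-cell markers did not move alike: Cd79b was at 0.58 with groups apart, Ms4a1 at 0.58 with overlap and Cd79a at -0.01. The sums of classical DC, marginal zone macrophages and T cells were lower in every litter, and that of neutrophils was mixed in sign. Of the 5 T-cell markers only Cd5 was above background, so that sum says little of the others. Of the 2 measured marginal zone markers, Cd209b was at -0.63 and Siglec1 at 0.51, each with groups apart. Of 17 markers of red pulp macrophages, which are rich in lysosomes, 16 were measured and 9 were called higher, among them C1qa, Spic and Mertk, with a median log2 change of 1.31. The summed linear level of all 17 was 13.36 to 13.77 (log2) in WT and 14.22 to 14.43 in Runx3-/- arrays. With litter as a block 0 of these 9 markers passed (limma adjusted p = 0.074 to 0.104). Adgre1, which encodes the F4/80 antigen, had a log2 change of 0.01 (12.26 to 12.54 in WT and 12.35 to 12.58 in Runx3-/- arrays), and Cd163 was below background in all arrays. Of 8 monocyte markers, 4 were measured, all above 0 and 1 called (Cx3cr1, limma adjusted p = 0.074 with the block), and the sum over the 6 with a probe set was 11.77 to 12.19 in WT and 12.62 to 12.76 in Runx3-/- arrays. Some of these markers are also DC genes in the study. It reported Cx3cr1 and Irf8 as genes of DC low in Esam that rose in Esam-high DC lacking Runx3, by RT-qPCR or flow cytometry. It also named Spic, higher in Runx3-deficient CD4+ DC, among genes tied to DC development. The array evidence it gave for Spic is from this same series and is no separate measurement, though it cited an RT-qPCR figure as well. What part these markers or their cells had in the rises of Galc, Lgmn, Lamp1 and Acp2 was not tested.

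Set beside each other by litter, the summed macrophage markers differed by 0.74, 0.66 and 0.85 and the monocyte markers by 0.92, 0.43 and 1.00, while the median of the lysosomal members differed by 0.15, -0.01 and 0.08. These differences were all lowest in litter 2, but those of the marker sums were highest in litter 3 and that of the lysosomal median in litter 1. Whether they vary together was not tested. Markers of plasmacytoid DC were highest in Runx3-/- 3 (11.91, against 10.38 to 10.84 in the other arrays). Without that array the log2 changes of Galc, Lgmn, Lamp1 and Acp2 were 1.41, 0.89, 0.81 and 0.55, each above its value with all arrays, though with adjusted p (limma) of 0.052, 0.062, 0.083 and 0.120 from the smaller set.

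**Figure D4:**
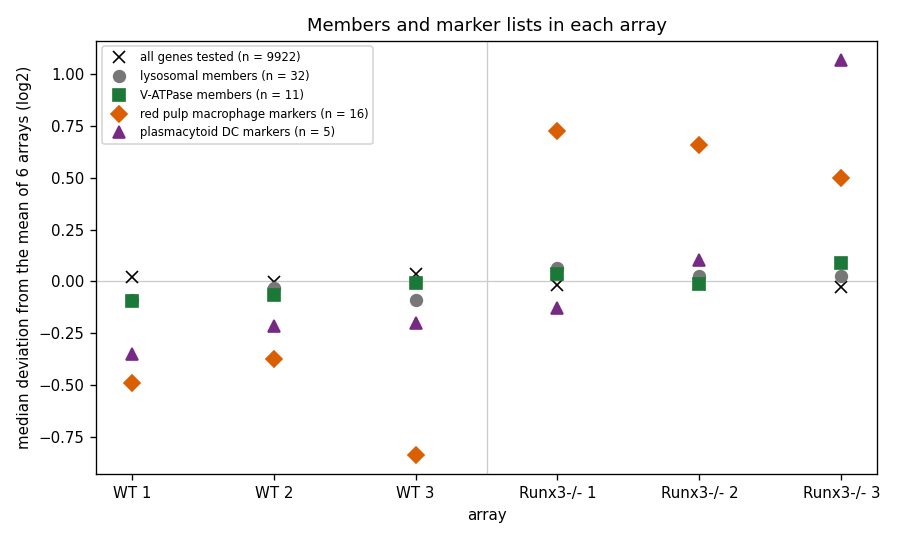
Median deviation of a gene list from the mean of the 6 arrays (vertical axis, log2) in each array, for the lysosomal and V-ATPase members, all genes tested and the markers of 2 other cell types. The members stay within 0.1 of 0 in every array, while macrophage markers run from -0.84 in WT 3 to 0.73 in Runx3-/- 1 and plasmacytoid DC markers reach 1.07 in Runx3-/- 3.

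A wider list of 109 genes of the lysosome and its control, held by role, was read in the same way. Of 86 measured, 1 rose, Pla2g15, and 0 fell (limma, adjusted p of at most 0.05). Of all genes, 1.36% were called higher and 0.907% lower, 2.27% in either direction. The median log2 change of the 86 was -0.01, against -0.03 over all genes. At an unadjusted p of at most 0.05, 12 were higher and 11 lower, 14.0% and 12.8% against 7.59% and 11.8% of all genes. Pla2g15, a lysosomal phospholipase, was at 7.72, 7.86 and 7.54 in WT and 8.62, 8.48 and 8.32 in Runx3-/- arrays. Its groups lay apart, with a log2 change of 0.76 (SE 0.12, limma adjusted p = 0.042), and the call was lost with litter as a block (limma adjusted p = 0.083) and in each of the 6 fits that left out an array. Without Runx3-/- 2 a different gene passed, Laptm4b, a lysosomal transmembrane protein, at a log2 change of 0.94 (limma adjusted p = 0.028), against 0.74 (limma adjusted p = 0.120) with all arrays.

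By role, the median log2 change was 0.19 in 17 other hydrolases and cofactors, 0.12 in 21 other membrane proteins and transporters and -0.03 in 9 other V-ATPase subunits. Of further V1 subunits, Atp6v1f was at -0.03, Atp6v1g2 at -0.03 and Atp6v1g1 at 0.17, with overlap in each and no call. In V0, Tcirg1, the subunit a isoform of osteoclasts and immune cells, was at -0.27 and Atp6v0e at -0.23, with groups that lay apart on the lower side and no adjusted call (limma adjusted p = 0.177 and 0.210). The lipase Lipa, which frees cholesterol from its esters and whose product Npc2 carries, was at -0.30 (limma adjusted p = 0.181).

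The median was -0.20 in 9 genes of enzyme delivery, of which 7 were below 0, -0.02 in 16 genes of mTORC1 and Tfeb control and -0.03 in 14 of autophagy. Chosen after its values were seen, Tfec, the remaining relative of Tfeb and one known chiefly from macrophages, was at 7.77, 7.89 and 7.68 in WT and at 9.68, 8.35 and 8.75 in Runx3-/- arrays. All Runx3-/- arrays were higher, but they spread over more than 1 log2 unit, and its log2 change of 1.15 (SE 0.32) did not pass (limma adjusted p = 0.165). In the same way Sort1, a receptor that carries some enzymes to lysosomes, was at 11.08, 11.21 and 10.81 in WT and 10.47, 10.85 and 9.84 in Runx3-/- arrays, with overlap (log2 change -0.65, limma adjusted p = 0.305).

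**Figure D5:**
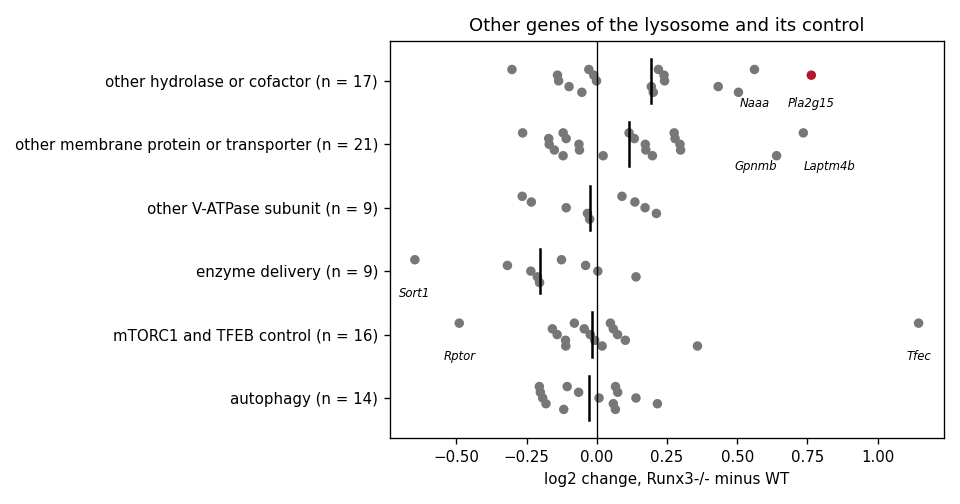
Log2 change, Runx3-/- minus WT (horizontal axis), of the 86 measured further genes by role, with a black bar at the median of each role and red for an adjusted p of at most 0.05. Hydrolases and membrane proteins reach higher values than V-ATPase subunits, enzyme delivery lies to the left with a median of -0.20, and Pla2g15 alone is red.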

How the data were processed

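The deposited log2 values were made by the authors with Partek Genomics Suite (robust multichip average with GC correction), and the submitters' processing notes name the mm9 build. Software versions were not given in the sources used here. This summary brings arrays close to 1 distribution, which can hide a shift common to most genes, and it compresses changes near the floor. The deposited values still differed slightly in level, with array medians of 6.57 to 6.65 (log2). An exon array is named in the methods, but the probe set identifiers belong to a gene-level array. Labels and methods also differ in the RNA kit, which is not settled here. Symbols came from GEO's platform annotation, and promoter windows from RefSeq (GRCm38.p6).

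The study's background level of 6.5 (log2) was reached in 1 array or more by 19149 of 35399 probe sets. These were tested with limma 3.58.1 in R 4.3.3 (lmFit, then eBayes, two-sided, genotype alone, all 6 arrays), and p-values were adjusted by Benjamini-Hochberg over all of them with a threshold of 0.05. The probe set with the highest mean stood for a gene. Alternatives were the methods' one-way analysis of variance, the litter block, other filters and scalings, the mean over probe sets and leaving out each array. The labels name the litter mates, and samples were paired by the number in their titles. Deviations of these pairs from their group means correlated at 0.16, 0.10 and 0.25. Pairs of unlike number were not compared, so these values do not settle the pairing, on which all litter results rest. Every member was named, and array values were given for those past a threshold and for the transcription factors. The members, lists and tests were chosen with earlier results of these data known. The lists covered the members, further lysosomal genes and markers of CD4+, CD8+, classical and plasmacytoid DC, red pulp and marginal zone macrophages, monocytes, neutrophils, B, T, NK and erythroid cells. The fit was tested on simulated data. Precision is limited by there being 3 arrays a group.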

Additional observations from a re-analysis of the deposited data

How the results depend on the processing

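Of 13 alternatives, 35 of the 46 member changes kept their sign in every one and 11, all near 0, did not. Called members numbered 4, but 0 with the litter as a replicate block and 0 by the methods' analysis of variance, and 0 to 2 when 1 array was left out. The called further gene, Pla2g15, was lost likewise, at 0 with the block and 0 by the analysis of variance, and with an array left out 0 to 1 further genes were called, the 1 being Laptm4b without Runx3-/- 2. With the block Runx3, at a change of -1.98, and all 13 called cell type markers also missed the threshold (limma adjusted p = 0.074 to 0.106 for the markers). Leaving out an array moved the change of Runx3 between -2.03 and -1.96. Members past the study's thresholds numbered 3 to 4 and those with groups apart 21 to 27 with an array left out. Groups apart went from 15 higher and 6 lower to 16 and 1 with median centring and 16 and 4 with quantile normalization. The lysosomal median of 0.09 was 0.126 with median centring and 0.0664 to 0.125 with an array left out, highest without WT 2. The V-ATPase median stayed between 0.0539 and 0.105 with an array left out. Signs turned with quantile normalization for Naglu (0.066) and Arsa (0.0399), and with median centring for Naglu (0.0391), Arsa (0.0228) and Fuca1 (0.0092). Median centring moved every member, and so the lysosomal median, up by about 0.04, which by itself turns these 3 signs. With an array left out, changes ran from -0.104 to 0.0868 for Arsa, -0.105 to 0.0941 for Arsb, -0.138 to 0.0233 for Fuca1, -0.0542 to 0.0589 for Naglu, -0.0367 to 0.145 for Neu1, -0.0162 to 0.213 for Tpp1, -0.0783 to 0.226 for Atp6v0a1, -0.0192 to 0.245 for Atp6v1d, -0.0403 to 0.0795 for Atp6v1e1, -0.0526 to 0.0776 for Atp6v1h and -0.0042 to 0.0579 for Atp6ap1. The cause of the turns with quantile normalization or an array left out was not tested. Galc signal in WT lay close to background, which limits its fold.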

Other observations

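The 7 markers of classical DC summed to 15.59 to 15.64 (log2) in WT and 15.43 to 15.57 in Runx3-/- arrays, and 0 of them were called. Of the 7, 6 had a log2 change below 0, and Ccr7 was at 0.29. Zbtb46 (-0.35), Flt3 (-0.28) and H2-Eb1 (-0.14) lay lower in every Runx3-/- array without passing (limma adjusted p = 0.131, 0.202 and 0.532). The 8 markers of CD8+ DC, of which 7 were measured, summed to 10.92 to 11.05 and 11.41 to 11.91. Cadm1 and Irf8 were called higher, but not with litter as a block (limma adjusted p = 0.074 and 0.106). Xcr1 (0.68), Clec9a (0.61) and Tlr3 (0.09) did not pass, nor did Batf3, which was lower in every Runx3-/- array (-0.47, limma adjusted p = 0.199). Cd8a lay below background in all arrays but Runx3-/- 3, where it was at 6.54. Of the B-cell markers, 4 had a probe set, 3 were measured and 0 called, and the 4 had sums of 10.01 to 10.53 and 10.66 to 10.77. Of marginal zone macrophages, Marco was below background in all arrays, Cd209b was at 9.69 to 10.47 in WT and 9.29 to 9.64 in Runx3-/- arrays, and Siglec1 was above background in Runx3-/- arrays 1 and 3. All markers of NK and erythroid cells with a probe set were below background in all arrays, and of T cells and neutrophils only Cd5 and Ngp were above it in any, Ngp in Runx3-/- 1 alone (7.13).

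Of the genes of autophagy that Tfeb is known to serve, 0 of 14 measured were called (limma) and 3 had an unadjusted p of at most 0.05, all lower, 21.4% against 11.8% of all genes lower and 19.4% in either direction. These 3, Atg7, Vps18 and Uvrag, lay lower in every Runx3-/- array, with log2 changes of -0.20, -0.20 and -0.19 (limma adjusted p = 0.253, 0.278 and 0.263). Of the genes of mTORC1, the kinase complex that keeps Tfeb out of the nucleus, Rptor, which encodes its scaffold raptor, was at 9.02, 9.15 and 8.81 in WT and 8.50, 8.63 and 8.38 in Runx3-/- arrays, with a log2 change of -0.49 (SE 0.11, limma adjusted p = 0.114). These genes were named after their values were seen.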
